A study of Mus musculus with 8 samples.

Results

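Genes of major histocompatibility complex (MHC) class I antigen presentation were followed by RNA sequencing in labelled cells of the mouse intestinal epithelium. The set was 10 gene symbols of the 24013 in the deposited table: B2m, H2-K1, H2-D1, H2-Q1, H2-Q2, H2-M3, Tap1, Tap2, Tapbp and Nlrc5. They were chosen by name and without a rule on their values, but with earlier results of these data known. Mice of a mixed C57/BL6 and 129 background, aged 8 to 14 weeks, carried Lyz1CreER with the R26R-tdT reporter and each received 1 dose of 10 mg tamoxifen. Tamoxifen then marks cells with an active Lyz1 promoter (a lysozyme gene of the Paneth cell) and whatever descends from them with tdTomato, so every group consists of cells marked through this 1 driver. Sorted cells were DAPI negative, CD45 negative and EpCAM positive. Irradiated CD24- cells (Rad_CD24Neg, 3 libraries) were tdTomato+ cells outside the Paneth gate, taken 5 days after radiation. Irradiated CD24+ cells (Rad_CD24Pos, 3 libraries) were tdTomato+ cells in the Paneth gate, also taken 5 days after radiation. Non-irradiated CD24+ cells (NoRad_CD24Pos, 2 libraries) came from the same gate in mice without radiation. A CD24- group without radiation was not analysed here, and between irradiated CD24- and non-irradiated CD24+ cells the effects of gate and radiation cannot be told apart. Whether replicates are separate mice is not stated by the labels, and all p-values cover only the spread between these samples, which may be technical.

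Class I molecules display short peptides from inside the cell to CD8 T cells. The proteasome cuts proteins into peptides, Tap1 and Tap2 form the transporter that moves them into the endoplasmic reticulum, and tapasin, the product of Tapbp, holds empty class I molecules at that transporter. A class I molecule is a heavy chain paired with the light chain beta2-microglobulin, the product of B2m. H2-K1 and H2-D1 encode the classical heavy chains, H2-Q1 and H2-Q2 are class I genes of the Q region, and H2-M3 encodes a nonclassical heavy chain known for presenting formylated peptides. Nlrc5 is a transactivator of class I promoters, and interferons raise the transcription of most of these genes. B2m lies on chromosome 2 and Nlrc5 on chromosome 8, and the other 8 members lie on chromosome 17.

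The promoters of H2-D1, H2-K1 and H2-M3 are shown because their windows hold elements known from class I promoters. The promoter of B2m, the light chain gene, is shown beside them. H2-M3 is the member among them that did not move with the others. Each sequence is a window of 300 bases around the gene start from RefSeq on build GRCm38.p6, in the direction of the gene. Capitals mark matches to the motifs searched on both strands: the core of the interferon-stimulated response element in 2 spellings, TTCNNNGAA (gamma-activated site core), TGACGC (core of the X2 element), CCAAT (Y element, ATTGG on the other strand) and GGGANTCCC (enhancer A core).
B2m, chr2:122147437-122147736, plus strand: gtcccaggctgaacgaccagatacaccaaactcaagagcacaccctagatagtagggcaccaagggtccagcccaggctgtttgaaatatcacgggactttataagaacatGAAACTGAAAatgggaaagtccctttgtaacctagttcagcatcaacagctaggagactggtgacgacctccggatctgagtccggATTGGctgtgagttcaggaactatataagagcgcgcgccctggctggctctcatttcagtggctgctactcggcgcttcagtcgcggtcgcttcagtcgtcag
H2-D1, chr17:35262844-35263143, plus strand: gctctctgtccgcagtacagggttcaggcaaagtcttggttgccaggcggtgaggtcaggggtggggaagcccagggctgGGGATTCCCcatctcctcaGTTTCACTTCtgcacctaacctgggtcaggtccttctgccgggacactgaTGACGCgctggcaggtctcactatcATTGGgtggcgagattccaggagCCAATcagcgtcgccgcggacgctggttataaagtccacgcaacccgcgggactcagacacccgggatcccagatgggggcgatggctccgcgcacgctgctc
H2-K1, chr17:34000298-34000597, minus strand: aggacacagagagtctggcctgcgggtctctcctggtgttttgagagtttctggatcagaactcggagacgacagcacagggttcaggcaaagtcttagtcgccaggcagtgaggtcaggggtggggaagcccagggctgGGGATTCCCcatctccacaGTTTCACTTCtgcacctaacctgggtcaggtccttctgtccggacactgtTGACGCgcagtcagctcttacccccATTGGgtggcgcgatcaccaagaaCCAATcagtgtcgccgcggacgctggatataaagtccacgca
H2-M3, chr17:37269984-37270283, plus strand: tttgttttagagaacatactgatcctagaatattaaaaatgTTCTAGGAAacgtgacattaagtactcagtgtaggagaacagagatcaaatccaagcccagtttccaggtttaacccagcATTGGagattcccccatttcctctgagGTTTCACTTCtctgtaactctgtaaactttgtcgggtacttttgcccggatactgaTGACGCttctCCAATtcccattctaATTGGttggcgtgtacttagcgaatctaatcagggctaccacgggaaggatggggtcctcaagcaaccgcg

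The first spelling of the interferon-stimulated response element core was in the windows of H2-K1, H2-D1 and H2-M3 and in 1.73% of all 32851 windows of the table. TGACGC was in the same 3 windows and in 7.4% of all windows. The enhancer A core was in the windows of H2-K1 and H2-D1 and in 0.767% of all windows. B2m held the second spelling, which was added after the sequence had been seen and was in 3.44% of all windows. TTCNNNGAA was in the H2-M3 window and in 8.3% of all windows. CCAAT was found in the windows of B2m, H2-D1, H2-K1, H2-Q2, H2-M3, Tap1 and Tapbp, and in 37.4% of all windows. H2-Q2, Tap1 and Tapbp had none of the other motifs. The Tap1 window overlaps that of its neighbour Psmb9, an immunoproteasome subunit read from the other strand, by 275 of 300 bases. H2-Q1, Tap2 and Nlrc5 were named only. A match describes the letters and is not a binding site, and the windows are of another build than the authors' mm9, so they bear on no coordinate of the deposited table.

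Values were FPKM, fragment abundance per transcript length and per library size, as the authors deposited them, and levels of genes are set side by side on this per-length scale. Library depth was approximated at 35000000 to 45600000 fragments from the steps between low values. The sorted populations had opposite makeups. Of all FPKM, 40 Paneth products took 4.12% to 14.1% in irradiated CD24- libraries, 73.4% to 76.2% in irradiated CD24+ libraries and 77.6% and 83.0% in non-irradiated CD24+ libraries. FPKM is relative to the whole library, so all other genes share what these products leave. Cd24a, the gate's own gene, was at 37.4 to 117 FPKM in irradiated CD24- libraries, 670 to 750 in irradiated CD24+ libraries and 621 and 663 in non-irradiated CD24+ libraries, and Epcam was detected at 140 to 736 FPKM in all 8 libraries. Non-irradiated replicate 1 stood apart, where 9362 genes reached 1 FPKM, while the other 7 libraries had 10293 to 10697 such genes. Because of these differences, the members' fold changes between gates are also given after median-of-ratios scaling, which aligns the libraries on the typical gene. For other genes, single fold changes are as deposited, and most counts of calls are also given under other scalings.

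Class I heavy chains share sequence. Among 50-base windows of the GENCODE transcripts of each gene, 16.1% of those of H2-Q2, 15% of H2-Q1, 12.8% of H2-D1 and 9.63% of H2-K1 were also found in a transcript of another gene. In windows of 100 bases the shares were lower and in another order, at 8.05% for H2-Q1, 5.09% for H2-Q2, 3.59% for H2-D1 and 0.957% for H2-K1. In the 50-base windows H2-Q1 was the main partner of H2-Q2, with 12.9% of its windows. The 50-base share was 2.87% for Tapbp, 0.655% for Tap2, 0.576% for H2-M3 and 0.442% for Tap1, and no such window was found for B2m and Nlrc5. How the authors' counting divided shared reads is not given in the sources used here, so the split among H2-K1, H2-D1, H2-Q1 and H2-Q2 is uncertain.

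Irradiated CD24- cells had higher levels of the class I light chain, of both classical heavy chains, of both Q-region genes and of the 3 peptide-loading members than irradiated CD24+ cells. On the log2(FPKM + 1) scale the differences ran from 1.92 for H2-K1 to 3.69 for H2-Q1. H2-M3 and Nlrc5, both near or under 1 FPKM, did not share this difference. Of the 10 members, 9 reached 1 FPKM in at least 2 libraries and were tested, and limma called 8 of these 9 higher and 0 lower at an adjusted p under 0.05, while it called 48.6% of the 11190 genes tested higher and 7.27% lower. The same 8 members had every irradiated CD24- library above every irradiated CD24+ library, an order shown by 59.1% of all genes. The median of the 9 log2 fold changes was 2.06, and that of all genes tested was 0.51. In bulk libraries, fewer cells of a type and less RNA per cell cannot be told apart.

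**Figure D1:**
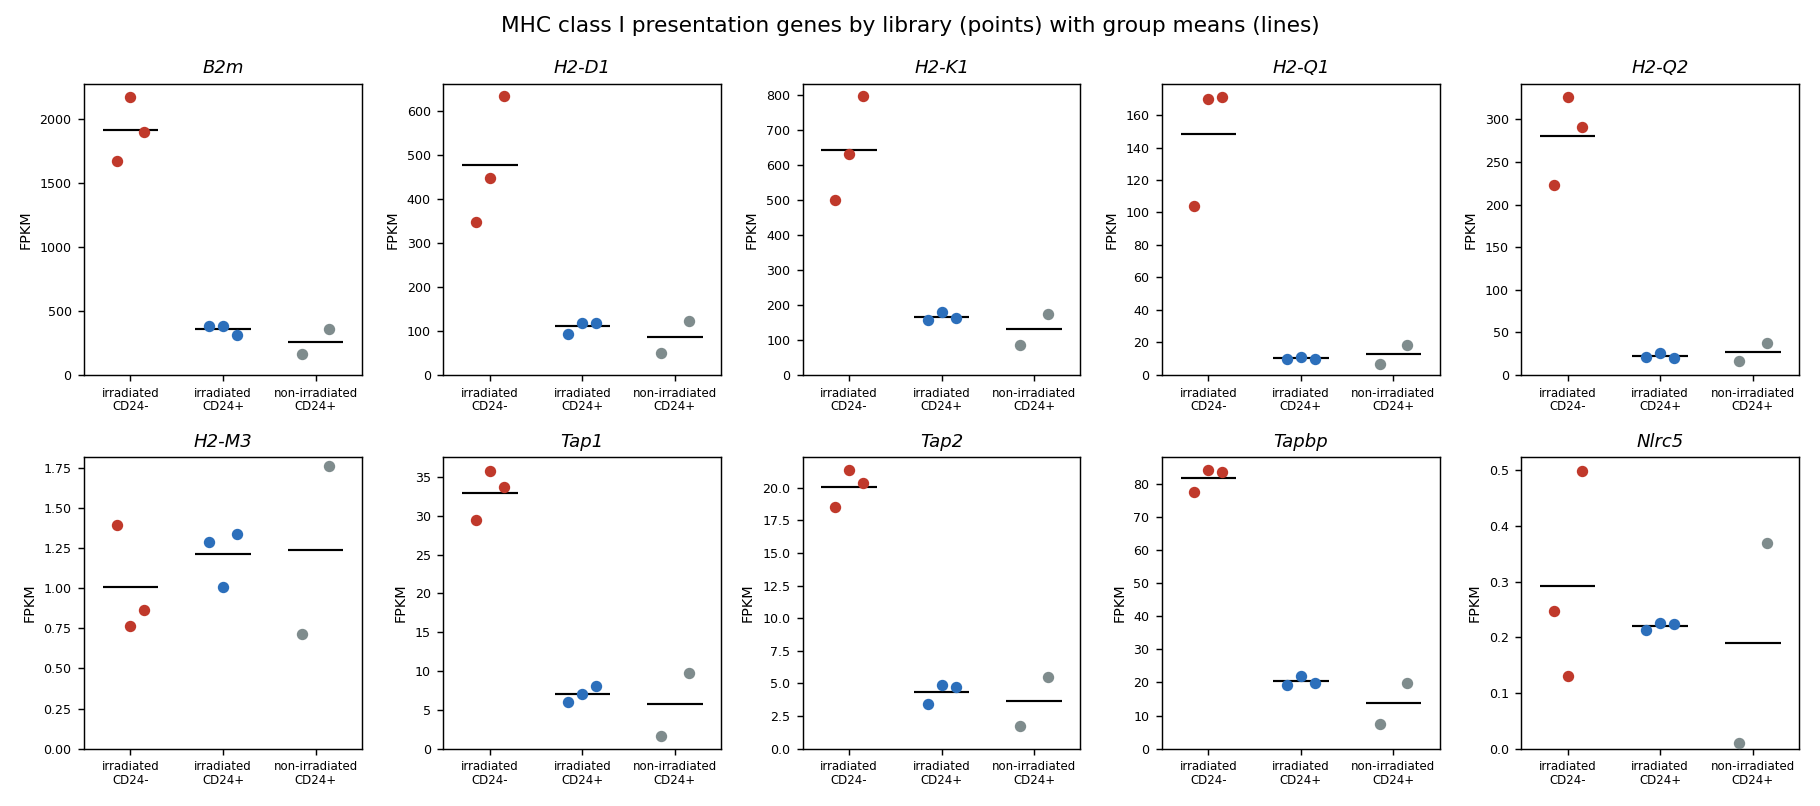
FPKM of the 10 class I presentation genes on linear axes that start at 0, with 1 point per library and a line at each group mean, for irradiated CD24- (left), irradiated CD24+ (middle) and non-irradiated CD24+ libraries (right). For B2m, the points lie between 1670 and 2178 in irradiated CD24- libraries, between 313 and 380 in irradiated CD24+ libraries and at 164 and 356 in non-irradiated CD24+ libraries, and only H2-M3 and Nlrc5 among the 10 have overlapping CD24- and CD24+ points.

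The light chain gene B2m was the most abundant member in every library. It had 1670, 2178 and 1904 FPKM in irradiated CD24- libraries, against 379, 380 and 313 FPKM in irradiated CD24+ libraries and 164 and 356 FPKM in non-irradiated CD24+ libraries. All CD24- values lay above all CD24+ values, and the CD24+ groups overlapped. The irradiated groups averaged 1917 ± 254 FPKM for CD24- cells and 357 ± 38.3 FPKM for CD24+ cells (SD over n = 3 libraries each), and the log2 fold change was 2.42 ± 0.35 (SE, limma adjusted p = 0.000171). Relative to the median gene the difference was 1.91, and 95.2% of the genes tested had a smaller log2 fold change.

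Of the classical heavy chains, H2-K1 had 500, 629 and 796 FPKM in irradiated CD24- libraries, against 156, 180 and 162 FPKM in irradiated CD24+ libraries and 85.8 and 175 FPKM in non-irradiated CD24+ libraries. H2-D1 had 348, 447 and 632 FPKM in irradiated CD24- libraries, against 93.8, 119 and 118 FPKM in irradiated CD24+ libraries and 50.4 and 123 FPKM in non-irradiated CD24+ libraries. Both genes were lowest in replicate 1 and highest in replicate 3 of the irradiated CD24- libraries, and neither had a CD24- value within the CD24+ range. H2-K1 rose by 1.92 ± 0.32 on the log2 scale in irradiated CD24- over irradiated CD24+ cells (SE, limma adjusted p = 0.000452). The log2 fold change of H2-D1 in the same comparison was 2.06 ± 0.35 (SE, limma adjusted p = 0.000544). Under quantile normalization the log2 fold change of H2-D1 was 0.87 and its call was lost (adjusted p = 0.0573, with a range of 3.59e-07 to 0.0573 over 20 alternatives), while H2-K1 at 0.84 remained called.

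The Q-region genes had the largest differences of the set. H2-Q1 had 104, 170 and 171 FPKM in irradiated CD24- libraries, against 10.0, 10.8 and 9.92 FPKM in irradiated CD24+ libraries and 6.71 and 18.6 FPKM in non-irradiated CD24+ libraries. H2-Q2 had 223, 327 and 291 FPKM in irradiated CD24- libraries, against 21.0, 25.7 and 19.5 FPKM in irradiated CD24+ libraries and 16.3 and 37.8 FPKM in non-irradiated CD24+ libraries. The CD24- libraries stood clear of all CD24+ libraries for both genes, with replicate 1 the lowest of the 3. Mean H2-Q1 was 14.5 times and mean H2-Q2 12.7 times as high in irradiated CD24- as in irradiated CD24+ cells. The log2 fold changes were 3.69 ± 0.33 for H2-Q1 (SE, limma adjusted p = 9.82e-06) and 3.60 ± 0.30 for H2-Q2 (SE, limma adjusted p = 8.05e-06), and 98.8% and 98.7% of the genes tested had smaller ones. These values share reads between H2-Q1 and H2-Q2 to the extent given above.

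H2-M3 had 1.39, 0.763 and 0.861 FPKM in irradiated CD24- libraries, against 1.29, 1.01 and 1.33 FPKM in irradiated CD24+ libraries and 0.712 and 1.76 FPKM in non-irradiated CD24+ libraries. The 3 groups overlapped at a level far below the other heavy chains, at which a pseudocount of 1 shrinks differences. The log2 fold change in irradiated CD24- over irradiated CD24+ cells was -0.15 ± 0.20 (SE, limma adjusted p = 0.553), and its direction turned with the scaling. It was -0.42 after median-of-ratios scaling (adjusted p = 0.0422) and 0.54 after rescaling to TPM (adjusted p = 0.0269), with adjusted p between 0.0269 and 0.848 over the alternatives. In the deposited values, after median-of-ratios scaling and as TPM, the median over all genes was 0.51, 0.04 and 1.60. H2-M3 lay below that median in each of these settings. The promoter window of H2-M3, printed above, holds the same interferon-response and X2 cores as those of H2-K1 and H2-D1.

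The genes of peptide supply and loading moved together. Tap1 had 29.4, 35.8 and 33.7 FPKM in irradiated CD24- libraries, against 5.98, 7.09 and 8.02 FPKM in irradiated CD24+ libraries and 1.69 and 9.71 FPKM in non-irradiated CD24+ libraries. Tap2 had 18.5, 21.3 and 20.3 FPKM in irradiated CD24- libraries, against 3.45, 4.85 and 4.76 FPKM in irradiated CD24+ libraries and 1.76 and 5.49 FPKM in non-irradiated CD24+ libraries. Both transporter genes were higher in each CD24- library than in any CD24+ library, and both were lowest in non-irradiated replicate 1. Tapbp had 77.3, 84.1 and 83.6 FPKM in irradiated CD24- libraries, against 19.1, 21.9 and 19.8 FPKM in irradiated CD24+ libraries and 7.44 and 19.9 FPKM in non-irradiated CD24+ libraries. Tapasin transcripts thus showed the same gap between gates, with a spread within irradiated groups of 3.77 FPKM (SD, n = 3) in CD24- cells and 1.47 FPKM (SD, n = 3) in CD24+ cells. In irradiated CD24- over irradiated CD24+ cells the log2 fold change was 2.08 ± 0.39 for Tap1 (SE, limma adjusted p = 0.000952), 1.99 ± 0.28 for Tap2 (SE, limma adjusted p = 0.000147) and 1.96 ± 0.29 for Tapbp (SE, limma adjusted p = 0.000207).

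Transcripts of the transactivator Nlrc5 stayed low. They were at 0.248, 0.131 and 0.499 FPKM in irradiated CD24- libraries, against 0.213, 0.226 and 0.224 FPKM in irradiated CD24+ libraries and 0.00956 and 0.370 FPKM in non-irradiated CD24+ libraries. The groups overlapped, and no library reached the 1 FPKM needed for testing. Without that filter the log2 fold change in irradiated CD24- over irradiated CD24+ cells was 0.07 ± 0.15 (SE, limma adjusted p = 0.994), on a scale that compresses values this low.

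**Figure D2:**
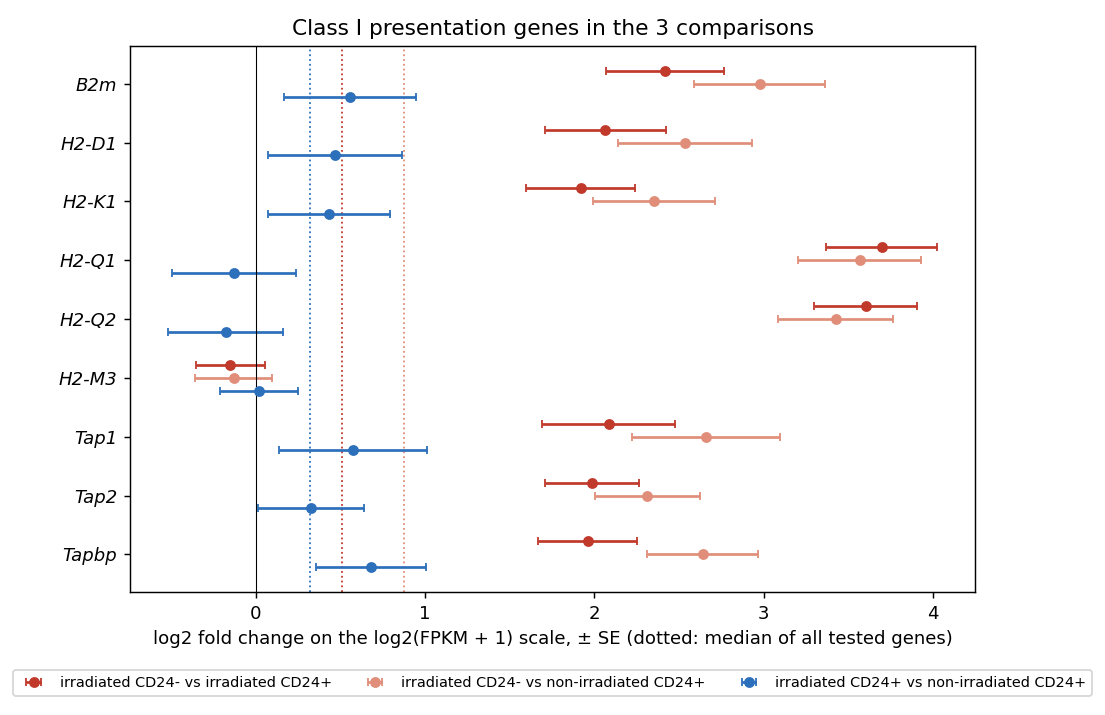
Log2 fold change with its SE for the 9 tested members in the 3 comparisons, on the log2(FPKM + 1) scale, with dotted lines at the median of all tested genes. In irradiated CD24- over irradiated CD24+ cells, 8 members lie between 1.92 and 3.69 and H2-M3 at -0.15, and in irradiated over non-irradiated CD24+ cells the 9 members lie between -0.18 and 0.68.

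The size of these differences moved with the scaling. All genes together shifted by a median of 0.51 in irradiated CD24- over irradiated CD24+ cells, by 0.04 after median-of-ratios scaling, 1.60 after rescaling to TPM, -0.07 after quantile normalization and 0.01 after rescaling on all genes but the Paneth products. The calls over all genes moved with this, at 5439 higher and 813 lower as deposited, 3625 and 2725 after median-of-ratios scaling, 10000 and 260 as TPM, 2821 and 3408 after quantile normalization and 2913 and 2167 without the Paneth products. After median-of-ratios scaling the same 8 members were called higher and H2-M3 lower. The log2 fold change then was 1.85 for B2m, 1.35 for H2-K1, 1.5 for H2-D1, 3.14 for H2-Q1, 3.04 for H2-Q2, 1.54 for Tap1, 1.46 for Tap2 and 1.40 for Tapbp, the same order of the 8 as in the deposited values.

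**Figure D3:**
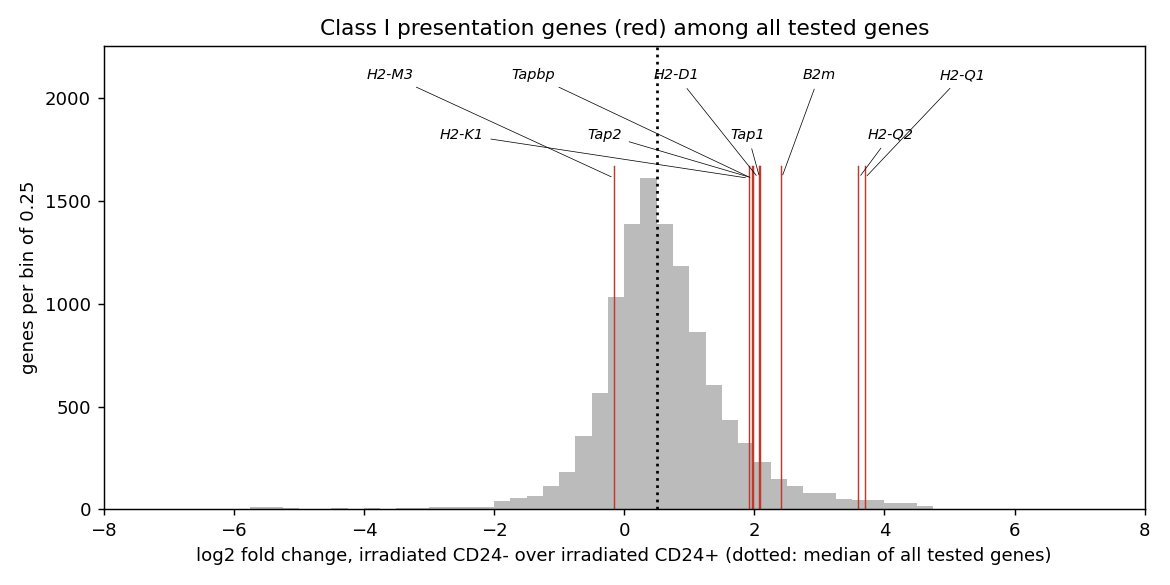
Number of tested genes per bin of 0.25 log2 fold change in irradiated CD24- over irradiated CD24+ cells (grey), with the 9 tested members as red lines and the median of all genes, 0.51, as a dotted line. H2-Q1 and H2-Q2 lie at 3.69 and 3.60 in the upper tail, 6 members lie between 1.92 and 2.42, and H2-M3 lies at -0.15, left of the median.

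The comparison of irradiated CD24- with non-irradiated CD24+ cells gave higher levels of these 8 members in irradiated CD24- cells. This comparison uses the same CD24- libraries as the previous one, so its values are given beside them and are not independent. Of the 9 members tested, 8 were called higher and 0 lower, beside 65.7% of all genes higher and 4.99% lower, and 8 members had every CD24- library above both non-irradiated libraries, as 70.1% of all genes did. The log2 fold changes were 2.97 ± 0.39 for B2m, 2.35 ± 0.36 for H2-K1 and 2.53 ± 0.40 for H2-D1. They were 3.56 ± 0.36 for H2-Q1 and 3.42 ± 0.34 for H2-Q2, each with its SE, and limma adjusted p ranged from 1.82e-05 for H2-Q2 to 0.000315 for Tap1 among the 8. For the loading genes they were 2.66 ± 0.44 for Tap1, 2.31 ± 0.31 for Tap2 and 2.64 ± 0.33 for Tapbp. After median-of-ratios scaling all 8 remained called, at 1.94 for B2m, 1.32 for H2-K1, 1.50 for H2-D1, 2.58 for H2-Q1, 2.41 for H2-Q2, 1.79 for Tap1, 1.45 for Tap2 and 1.65 for Tapbp. The size also depended on the non-irradiated library. Without non-irradiated replicate 1 the log2 fold change was 2.42 for B2m, 1.84 for H2-K1, 1.90 for H2-D1, 2.89 for H2-Q1, 2.84 for H2-Q2, 1.66 for Tap1, 1.70 for Tap2 and 1.99 for Tapbp. Without non-irradiated replicate 2 it was 3.53 for B2m, 2.86 for H2-K1, 3.17 for H2-D1, 4.24 for H2-Q1, 4.01 for H2-Q2, 3.66 for Tap1, 2.93 for Tap2 and 3.29 for Tapbp. All 8 members stayed higher in both fits, where the single library left is assumed to vary as the other groups do. The median over all genes was 0.62 without non-irradiated replicate 1 and 1.14 without non-irradiated replicate 2. H2-M3 was at -0.13 ± 0.23 (SE, limma adjusted p = 0.618), at -0.64 and called lower after median-of-ratios scaling (adjusted p = 0.0131, with a range of 0.0131 to 0.932 over the alternatives), and at 0.61 after rescaling to TPM. The median over the 9 was 2.64 and that over all genes 0.88. The call of H2-D1 (log2 fold change 0.90) and that of H2-K1 (0.80) were lost under quantile normalization. Over all genes 7349 were called higher and 558 lower as deposited, 3316 and 2465 after median-of-ratios scaling, 2729 and 2905 after quantile normalization and 3532 and 1292 without the Paneth products.

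Within the Paneth gate, no member was called changed between irradiated and non-irradiated cells. limma called 0 of 9 members and 0% of all genes in either direction, and 0 members had an unadjusted p under 0.05, against 12.7% of all genes. Each alternative setting also called 0 members, except the fit without non-irradiated replicate 2 described next. The log2 fold changes were between -0.18 for H2-Q2 and 0.68 for Tapbp, with a median of 0.43 for the members and 0.32 for all genes. Mean B2m was 357 ± 38.3 FPKM in irradiated (SD, n = 3) and 260 ± 136 FPKM in non-irradiated CD24+ cells (SD, n = 2). The deposited values of irradiated and non-irradiated libraries overlapped for all 10 members, while 34.2% of all genes had every irradiated library above both non-irradiated ones. After median-of-ratios scaling every irradiated library lay below both non-irradiated ones for H2-Q1 and H2-Q2, as for 16.8% of all genes, and the other 8 members overlapped. The log2 fold change then was -0.56 for H2-Q1 (limma adjusted p = 0.685) and -0.63 for H2-Q2 (limma unadjusted p = 0.0254, adjusted p = 0.558), and between -0.22 and 0.25 for the other 7 tested members. Neither Q-region gene was called in this comparison under any alternative.

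For each member, the deposited values of the 2 non-irradiated libraries differed from each other by a larger factor than those of the irradiated CD24+ libraries did. Replicate 2 had 2.17 times the B2m, 2.04 times the H2-K1, 2.45 times the H2-D1, 2.67 times the Tapbp, 3.12 times the Tap2 and 5.76 times the Tap1 of replicate 1. After median-of-ratios scaling these ratios were 1.32 for B2m, 1.24 for H2-K1, 1.49 for H2-D1, 1.62 for Tapbp, 1.90 for Tap2 and 3.51 for Tap1. For B2m the irradiated CD24+ libraries then differed by slightly more, with a highest value 1.36 times the lowest. The interferon-stimulated gene Isg15 was at 30.2 FPKM in replicate 2 and 0.907 FPKM in replicate 1, a ratio of 33.3. Without non-irradiated replicate 2, limma called 6 members higher in irradiated CD24+ cells (B2m, H2-D1, H2-K1, Tap1, Tap2 and Tapbp) together with 5172 of all genes (46.4%), under the assumption that the single library left varies as the other groups do. Without non-irradiated replicate 1 no member was called, and the log2 fold change of Tap1 was -0.42, against 1.57 without replicate 2. Whether members are called in the Paneth gate thus depends on which non-irradiated library is used.

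Ratios of FPKM between members within a library do not change where 1 factor scales the whole library, although quantile normalization does change them. The sum of H2-Q1 and H2-Q2 over the sum of H2-K1 and H2-D1 was 0.385, 0.461 and 0.324 in irradiated CD24- libraries, against 0.124, 0.122 and 0.105 in irradiated CD24+ libraries and 0.169 and 0.189 in non-irradiated CD24+ libraries. The 3 groups did not overlap, with irradiated CD24- cells highest and irradiated CD24+ cells lowest. The exact permutation test gave p = 0.1 for irradiated CD24- against irradiated CD24+ cells and p = 0.2 for each comparison with the 2 non-irradiated libraries, which are the smallest values these designs allow (two-sided, 12 tests in the family, adjusted p = 0.48). The balance of light to heavy chain, B2m over the sum of those 4 heavy chains, was 1.42, 1.38 and 1.01 in irradiated CD24- libraries, against 1.35, 1.13 and 1.01 in irradiated CD24+ libraries and 1.03 and 1.0 in non-irradiated CD24+ libraries. These ranges overlapped between irradiated CD24- and irradiated CD24+ cells (exact permutation p = 0.6, adjusted p = 0.655). H2-K1 over H2-D1 was 1.43, 1.41 and 1.26 in irradiated CD24- libraries, against 1.66, 1.52 and 1.37 in irradiated CD24+ libraries and 1.70 and 1.42 in non-irradiated CD24+ libraries. The groups overlapped (exact permutation p = 0.3 between the irradiated groups, adjusted p = 0.48), while in all 3 pairs of same-numbered irradiated libraries the ratio was lower in CD24- cells. An exact test over 3 pairs cannot give a two-sided p below 0.25. All 10 members together took 0.635% ± 0.113 of all FPKM among irradiated CD24- libraries (SD, n = 3). The shares were 0.0512% ± 0.00461 among irradiated CD24+ libraries (SD, n = 3) and 0.0363% ± 0.0224 among non-irradiated CD24+ libraries (SD, n = 2). Unlike the ratios, these shares move with the Paneth products, which are part of all FPKM. On that scale (TPM), all genes shifted by a median log2 of 1.60 in irradiated CD24- over irradiated CD24+ cells, with 89.4% called higher.

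**Figure D4:**
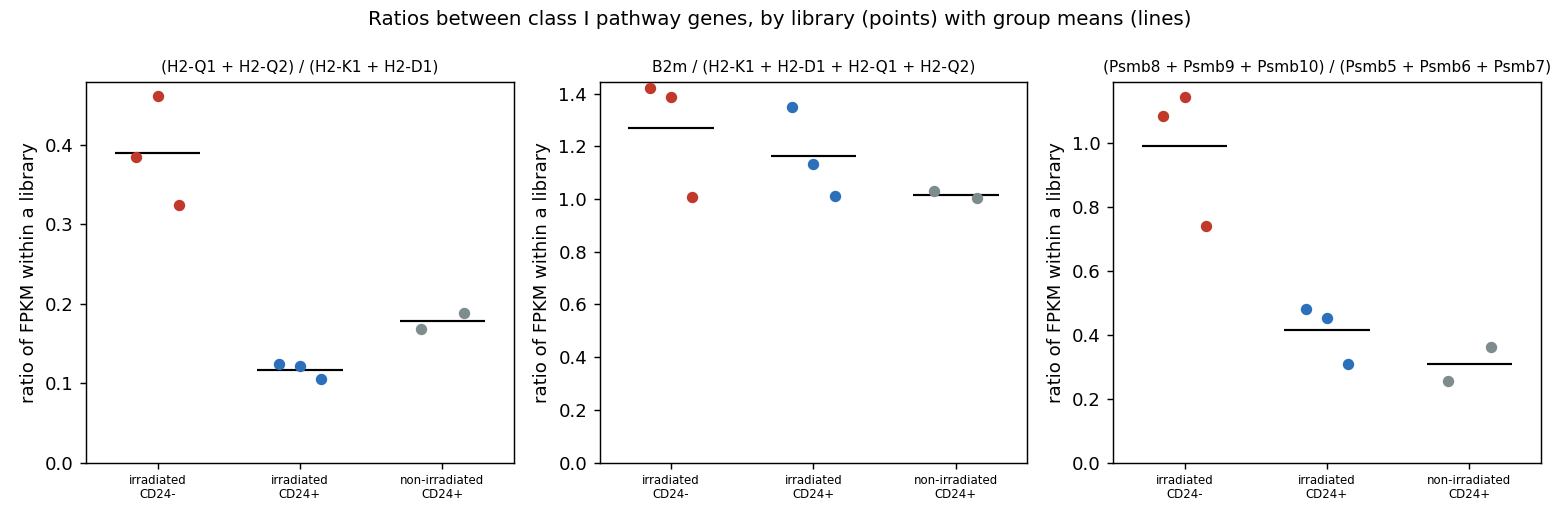
Ratios of FPKM within each library (points) with group means (lines), on axes that start at 0, for Q-region over classical heavy chains, B2m over the 4 heavy chains, and immunoproteasome over constitutive proteasome subunits. The first ratio is 0.324 to 0.461 in irradiated CD24-, 0.105 to 0.124 in irradiated CD24+ and 0.169 to 0.189 in non-irradiated CD24+ libraries, and the second overlaps between the irradiated groups.

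Genes of the immunoproteasome, which feeds the pathway, were higher in irradiated CD24- cells. The immunoproteasome swaps the 3 catalytic subunits of the constitutive particle for Psmb8, Psmb9 and Psmb10, and Psme1 and Psme2 form its activator. All 5 were called higher in irradiated CD24- over irradiated CD24+ cells, beside 48.6% of all genes, with a median log2 fold change of 2.09. Psmb8 had 86.0, 117 and 57.0 FPKM in irradiated CD24- libraries, against 16.3, 16.5 and 10.5 FPKM in irradiated CD24+ libraries and 4.03 and 15 FPKM in non-irradiated CD24+ libraries. Every CD24- library was above every CD24+ library, with a log2 fold change of 2.47 ± 0.40 over irradiated CD24+ cells (SE, limma adjusted p = 0.000367). Psmb10 was at 2.15 ± 0.30, Psmb9 at 2.09 ± 0.31, Psme2 at 1.95 ± 0.31 and Psme1 at 1.60 ± 0.32 (log2 fold change, SE). The 5 were called under median-of-ratios scaling, TPM and scaling without Paneth products, and 4 under quantile normalization. The shares of all genes called higher were 32.4%, 89.4%, 26.0% and 25.2% in that order. The constitutive subunits Psmb5, Psmb6 and Psmb7 were all called higher too, with a median of 0.93. But 1 was called after median-of-ratios scaling and none without the Paneth products. After quantile normalization 2 were called lower, as were 30.5% of all genes. Within a library, immunoproteasome over constitutive subunits was 1.08, 1.14 and 0.741 in irradiated CD24- libraries, against 0.481, 0.452 and 0.308 in irradiated CD24+ libraries and 0.257 and 0.362 in non-irradiated CD24+ libraries. The CD24- libraries lay above both CD24+ groups (exact permutation p = 0.1 against irradiated CD24+ cells, the smallest this design allows, adjusted p = 0.48). In irradiated over non-irradiated CD24+ cells none of the 5 was called and 4 had an unadjusted p under 0.05, as 12.7% of all genes did. Without non-irradiated replicate 2 all 5 were called higher, as were 46.4% of all genes.

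Other class I heavy chains shared the difference in part. Of 21 listed symbols, 15 were tested. In irradiated CD24- over irradiated CD24+ cells 9 passed as higher and 0 as lower, beside 48.6% and 7.27% of all genes. The median log2 fold change was 0.80 beside 0.51 for all genes. H2-Bl had 258, 362 and 463 FPKM in irradiated CD24- libraries, against 11.5, 14.2 and 14.9 FPKM in irradiated CD24+ libraries and 6.36 and 31.4 FPKM in non-irradiated CD24+ libraries. This put H2-Bl among the most abundant heavy chains of the CD24- libraries, with a log2 fold change of 4.61 ± 0.45 over irradiated CD24+ cells (SE, limma adjusted p = 1.41e-05), larger than that of any of the 10 members. H2-T3, which encodes the thymus leukemia antigen known from intestinal epithelium, had 37.7, 42.4 and 25.8 FPKM in irradiated CD24- libraries, against 3.61, 3.13 and 1.0 FPKM in irradiated CD24+ libraries and 1.63 and 5.68 FPKM in non-irradiated CD24+ libraries. Its log2 fold change over irradiated CD24+ cells was 3.40 ± 0.38 (SE, limma adjusted p = 3.52e-05). H2-T23, which encodes Qa-1, had 118, 157 and 151 FPKM in irradiated CD24- libraries, against 34.1, 37.0 and 34.0 FPKM in irradiated CD24+ libraries and 19.3 and 58.7 FPKM in non-irradiated CD24+ libraries, a log2 fold change of 1.98 ± 0.34 over irradiated CD24+ cells (SE, limma adjusted p = 0.000557). H2-Q10 (2.17), H2-Q4 (1.84), H2-Q5 (1.3), H2-L (1.29), H2-T9 (0.80) and H2-T22 (0.58) were also called higher. H2-Q6, H2-Q7, H2-Q8, H2-Q9, H2-T10 and H2-T24 did not pass, and 5 symbols were listed at 0 in all libraries. The count called higher was 7 of 15 under median-of-ratios scaling, beside 32.4% of all genes, and 7 under quantile normalization, beside 25.2%. As TPM it was 13 of 15, beside 89.4% of all genes. Splitting of reads among near-identical copies bears on all of these genes.

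Some partners of B2m outside antigen presentation to T cells moved as well. Fcgrt, the heavy chain of the neonatal Fc receptor, had 85.1, 105 and 59.2 FPKM in irradiated CD24- libraries, against 8.49, 7.96 and 3.96 FPKM in irradiated CD24+ libraries and 2.29 and 5.15 FPKM in non-irradiated CD24+ libraries. The CD24- libraries were all above the CD24+ libraries, with a log2 fold change of 3.45 ± 0.32 over irradiated CD24+ cells (SE, limma adjusted p = 1.25e-05). Hfe, a class I-like regulator of iron uptake, was called higher at 0.75 ± 0.17, a call that was lost when libraries were scaled without the Paneth products. Cd1d1, Cd1d2 and Mr1 were under 1 FPKM in all 8 libraries.

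Loading and trimming factors beyond the members differed less. Of 10 tested, 4 passed as higher and 0 as lower in irradiated CD24- over irradiated CD24+ cells, beside 48.6% and 7.27% of all genes. The median was 0.48 beside 0.51 for all genes. The 4 were Tapbpl, a tapasin-like editor (1.17 ± 0.21), the chaperone Canx (1.05 ± 0.24), the peptide trimmer Erap1 (0.95 ± 0.25) and Lnpep (0.56 ± 0.20), each as log2 fold change with its SE. The chaperones Calr and Hspa5, the oxidoreductase Pdia3, and Sec61a1, Nrd1 and Thop1 did not pass. The calls of this group moved with the scaling, as those of all genes did. They were 2 higher and 2 lower after median-of-ratios scaling, beside 32.4% and 24.4% of all genes. After quantile normalization they were 1 higher and 5 lower, beside 25.2% and 30.5%. As TPM 10 were higher, beside 89.4% of all genes.

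**Figure D5:**
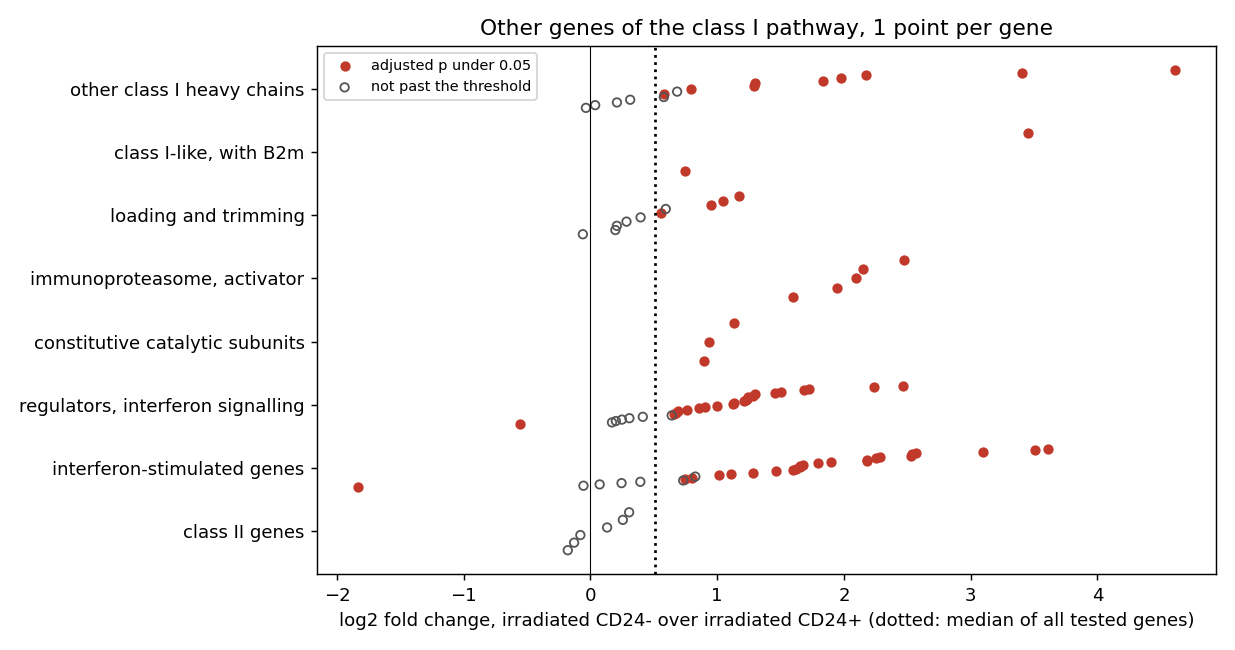
Log2 fold change in irradiated CD24- over irradiated CD24+ cells for genes of the class I pathway outside the 10 members and for class II genes, 1 point per tested gene, filled where the limma adjusted p was under 0.05, with the median of all genes, 0.51, as a dotted line. The 5 immunoproteasome genes lie between 1.60 and 2.47, the heavy chain H2-Bl lies at 4.61, and none of the 6 class II genes is filled.

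Of 28 regulators and interferon signalling genes tested, 21 (75%) passed as higher and 1 as lower in irradiated CD24- over irradiated CD24+ cells, beside 48.6% of all genes higher. Their median log2 fold change was 1.06, and that of all genes was 0.51. The interferon-gamma receptor gene Ifngr2 had 111, 115 and 101 FPKM in irradiated CD24- libraries, against 24.2, 23.4 and 19.9 FPKM in irradiated CD24+ libraries and 11.3 and 20.3 FPKM in non-irradiated CD24+ libraries. All CD24- libraries were above all CD24+ libraries, and the log2 fold change over irradiated CD24+ cells was 2.23 ± 0.24 (SE, limma adjusted p = 2.39e-05). Irf1, a transcription factor that binds interferon-response elements, was at 1.72 ± 0.23, the lambda interferon receptor gene Ifnlr1 at 1.5 ± 0.18 and Rfxank, a subunit of the RFX complex that binds class I and class II promoters, at 1.24 ± 0.17. Nfyb, a subunit of the factor that binds CCAAT, fell by 0.56 ± 0.19 (SE, limma adjusted p = 0.0254). With median-of-ratios scaling 13 (46.4%) were called higher and 1 lower, beside 32.4% and 24.4% of all genes. With quantile normalization 9 were higher and 1 lower, beside 25.2% and 30.5% of all genes. Without Paneth products 11 were higher and 1 lower, beside 26.0% and 19.4%. As TPM 28 were higher and 0 lower, beside 89.4% and 2.32%. The class II transactivator Ciita and the signalling inhibitor Socs1 stayed below the level for testing.

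Of 30 interferon-stimulated genes tested, 23 passed as higher and 1 as lower in irradiated CD24- over irradiated CD24+ cells, with a median log2 fold change of 1.64. The 23 are 76.7% of the list, beside 48.6% of all genes called higher and a median of 0.51. The RNA sensor gene Ifih1 had 16.7, 21.2 and 25 FPKM in irradiated CD24- libraries, against 5.54, 6.41 and 5.79 FPKM in irradiated CD24+ libraries and 3.23 and 10.4 FPKM in non-irradiated CD24+ libraries. The CD24- libraries did not overlap with either CD24+ group, and the log2 fold change over irradiated CD24+ cells was 1.65 ± 0.31 (SE, limma adjusted p = 0.000991). Ddx58, which encodes the RNA sensor RIG-I, was at 1.60 ± 0.30, the antiviral synthetase gene Oas3 at 2.53 ± 0.50 and the nucleic acid sensor Zbp1 at 2.26 ± 0.45 (log2 fold change, SE). Ifitm3 fell by 1.83 ± 0.49 (SE, limma adjusted p = 0.00802). The count was 12 higher (40%, beside 32.4% of all genes) and 1 lower after median-of-ratios scaling. In irradiated CD24- over non-irradiated CD24+ cells, 22 (73.3%) passed as higher in the deposited values, beside 65.7% of all genes. After median-of-ratios scaling 3 (10%) passed, a smaller share than the 29.6% of all genes. Without non-irradiated replicate 1, 5 (16.7%) passed as higher and 1 as lower, beside 49.5% of all genes higher, and this library held these genes at a summed 56.0 FPKM against 399 FPKM in replicate 2. In irradiated over non-irradiated CD24+ cells 0 of the 30 were called and 1 had an unadjusted p under 0.05, beside 12.7% of all genes. Without non-irradiated replicate 2, 14 of 29 tested (48.3%) were called higher, near the 46.4% of all genes.

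Class II genes, which present peptides from outside the cell, gave no call in any of the 3 comparisons. Of all genes, 48.6% were called higher in irradiated CD24- over irradiated CD24+ cells and 65.7% over non-irradiated CD24+ cells. Of 6 tested, 0 had an unadjusted p under 0.05 in each comparison, and the median log2 fold change in irradiated CD24- over irradiated CD24+ cells was 0.03. Cd74, the class II invariant chain, had 118, 20.8 and 8.15 FPKM in irradiated CD24- libraries, against 70.0, 27.7 and 14.2 FPKM in irradiated CD24+ libraries and 5.21 and 12.9 FPKM in non-irradiated CD24+ libraries. Replicate 1 was the highest library in both irradiated groups, while H2-K1 and H2-D1 were lowest in replicate 1 of the CD24- libraries. H2-Ab1 had 30.3, 6.77 and 3.51 FPKM in irradiated CD24- libraries, against 19.5, 5.25 and 3.53 FPKM in irradiated CD24+ libraries and 2.01 and 4.23 FPKM in non-irradiated CD24+ libraries, with replicate 1 again the highest. H2-DMa, which helps load class II peptides, was at 0.26 ± 0.49 (log2 fold change over irradiated CD24+ cells, SE, limma adjusted p = 0.674). As TPM, 2 class II genes were called higher over irradiated CD24+ cells and 6 over non-irradiated CD24+ cells, beside 89.4% and 93.2% of all genes.

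Markers of other cells were measured beside these results. All 12 enterocyte markers were higher in irradiated CD24- than in irradiated CD24+ cells, with a median log2 fold change of 4.53 and sums of 16281 to 37562 FPKM against 754 to 1340 FPKM, and all 11 Paneth markers were lower, with a median of -5.19. The CD24- libraries differed among themselves, with Paneth marker sums of 34292, 9125 and 4816 FPKM and enterocyte marker sums of 16281, 21559 and 37562 FPKM in replicates 1, 2 and 3. Replicate 1, with most Paneth and least enterocyte marker, was also the library of the 3 with least H2-K1, H2-D1, H2-Q1 and H2-Q2. The part of this shift in cell makeup in the class I differences was not tested. Of 7 goblet markers 3 were called higher and 1 lower, and of 9 enteroendocrine markers 2 higher and 2 lower. Of 7 tuft markers 0 were called higher and 6 lower, and of 8 stem and cycling markers 0 higher and 4 lower. Beside these, 48.6% of all genes were called higher and 7.27% lower. Immune cells also carry class I genes, and their part in the class I differences was not tested. Of 22 immune markers without Lyz2, 18 were under 1 FPKM in all 8 libraries, and they summed to 11.4 to 24.6 FPKM in irradiated CD24- libraries, 7.33 to 10.3 FPKM in irradiated CD24+ libraries and 4.79 and 8.40 FPKM in non-irradiated CD24+ libraries. Gzma, from cytotoxic lymphocytes, reached 8.74 FPKM in replicate 1 of the irradiated CD24- libraries, the library of that group with the highest sum. Ptprc, which encodes CD45, was at most 0.197 FPKM in irradiated CD24- libraries, 0.148 FPKM in irradiated CD24+ libraries and 0.539 FPKM in non-irradiated CD24+ libraries. Of the 5 immune markers tested, Itgam was called higher (1.23 ± 0.17) and Lyz2, which Paneth cells also hold, lower in irradiated CD24- than in irradiated CD24+ cells. Of 12 endothelial and stromal markers only Vim was tested, and it did not pass (1.19 ± 0.68, limma adjusted p = 0.158), and of 7 erythroid markers the 1 tested did not pass in this comparison.

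The heavy chains of chromosome 17 were set beside their neighbours. Tapbp lies before H2-K1, and from there the members in the reference order run H2-K1, Tap1, Tap2, H2-D1, H2-Q1, H2-Q2 and H2-M3, with Psmb9 and Psmb8 among them. From H2-K1 to H2-M3, 11 of 16 tested class I heavy chain genes (68.8%) were called higher in irradiated CD24- over irradiated CD24+ cells, with a median log2 fold change of 1.88. The 16 include the members H2-K1, H2-D1, H2-Q1, H2-Q2 and H2-M3, reported above. The other genes were counted without Tap1, Tap2, Psmb8, Psmb9 and all symbols that begin with H2-, so class II genes with such symbols were in neither set. Of these 78 tested genes, 40 (51.3%) were called higher and 3 lower, near the 48.6% of all genes called higher. Their median was 0.59.

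The profiles of the members over the 8 libraries were also compared with those of all tested genes, as the mean absolute difference of log2(FPKM + 1) values centred on each gene's own mean. Among members, H2-Q1 and H2-Q2 were closest to each other (0.107), followed by H2-D1 and H2-K1 (0.110) and H2-D1 and Tap2 (0.138). Outside the set, the genes nearest to B2m were Esrra (0.0762), Tmem45b (0.0834) and Pnp (0.0933). Those nearest to H2-K1 were Dapp1 (0.0786), Aldoc (0.0807) and Agrn (0.0893). Nlrc5 ran from 0.00956 to 0.499 FPKM, which this scale compresses to a nearly flat profile. It was nearest to Fbxl4 (0.0397), Ccdc17 (0.0556) and Golga5 (0.0587), genes that also varied little on this scale. With 8 libraries in 3 groups and 5439 genes called higher between the irradiated groups, such closeness is a description of shape.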

How the data were processed

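RNA libraries were made with TruSeq RNA v2, which keeps no strand, per the labels' protocols. The deposited table gives FPKM per gene, computed by the authors, and the software named in the submitters' processing notes is TopHat2 2.1.0 and StringTie 1.3.4, with build mm9. No annotation or filter is named (not given in the sources used here). Entries of the same symbol were summed (24015 entries, 24013 symbols). Genes with at least 1 FPKM in at least 2 libraries (11190) were tested on log2(FPKM + 1) with limma 3.58.1 in R 4.3.3, all 8 libraries in 1 fit by group with a mean-variance trend, at a Benjamini-Hochberg adjusted p under 0.05 over all genes, two-sided. The procedure was tested on simulated data without a shift of most genes between groups, so that test does not cover such a shift. SE is limma's moderated standard error. Figures used matplotlib 3.10.9 in Python 3.11.15.

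The members, the 18 gene lists (217 symbols, 5 of them not in the table), the tests and the alternatives were chosen with earlier results of these data known. Named genes were all members, up to 4 called genes with the smallest p of each list (up to 2 where none was called), genes that answer a small count, and the 3 nearest profiles of B2m, H2-K1 and Nlrc5. The values of Isg15, H2-T23 and Cd74 were chosen after they were seen. Across genes, the deviations from group means of same-numbered irradiated CD24- and irradiated CD24+ libraries had r = 0.366, 0.231 and 0.402, and genes are not independent replicates. No label says that these numbers pair the samples. The main fit and the exact permutation tests did not pair them. Only the replicate block, a term for this number in the fit, and the remark on same-numbered libraries used them. For irradiated and non-irradiated CD24+ libraries r was 0.232 and -0.0499, and for irradiated CD24- and non-irradiated CD24+ libraries 0.198 and 0.0993. Depth was approximated from 5378 genes with 1 GENCODE transcript, whose lengths may differ from the authors' annotation.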

Additional observations from a re-analysis of the deposited data

How the results depend on the processing

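The 8 members called higher in irradiated CD24- cells kept their direction in all 320 values over 20 alternatives and both comparisons, and kept their call in 317. The 3 lost calls, all under quantile normalization, were H2-D1 and H2-K1 over non-irradiated CD24+ cells and H2-D1 over irradiated CD24+ cells, and the cause was not tested. Called members numbered 7 to 9 over irradiated CD24+ cells and 6 to 9 over non-irradiated CD24+ cells, and 1 (H2-M3) was called lower in each after median-of-ratios scaling. H2-M3 reversed to 0.54 over irradiated and 0.61 over non-irradiated CD24+ cells as TPM. In that setting all 9 tested members were called higher, beside 89.4% and 93.2% of all genes. In irradiated over non-irradiated CD24+ cells, reversed log2 values, none of them called, were 0.0082 for H2-Q1 as TPM, -0.034 for H2-K1, -0.22 for H2-M3 and -0.011 for Tap2 after median-of-ratios scaling, -0.040 for B2m, -0.039 for H2-K1 and -0.23 for H2-M3 after quantile normalization, and for H2-M3 -0.081 without Paneth products, -0.047 with array weights and -0.022 with the replicate block in the 2 groups alone.

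With each library left out in turn, members called in irradiated over non-irradiated CD24+ cells ranged from 0 to 6, and all genes called from 0 to 5172 higher and 0 to 13 lower. The log2 values then ranged from 0.00036 to 1.11 for B2m, 0.026 to 1.33 for Tapbp, -0.17 to 1.11 for H2-D1, -0.078 to 0.94 for H2-K1, -0.80 to 0.54 for H2-Q1, -0.76 to 0.41 for H2-Q2, -0.33 to 0.36 for H2-M3, -0.42 to 1.57 for Tap1 and -0.29 to 0.94 for Tap2, and for H2-M3 in irradiated CD24- over non-irradiated CD24+ cells from -0.47 to 0.21.

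Counts over all genes moved as follows. In irradiated over non-irradiated CD24+ cells they were 2 higher and 11 lower without a filter, 3 lower after median-of-ratios scaling, 1 higher and 3 lower after quantile normalization and 5 higher with the 2 groups alone. With the replicate block they were 77 higher and 15 lower, and with the block in the 2 groups alone 83 higher and 35 lower. In irradiated CD24- over irradiated CD24+ cells they were 401 lower with a filter at 5 FPKM, 10000 higher and 260 lower as TPM, 3625 and 2725 after median-of-ratios scaling, 2821 and 3408 after quantile normalization, 2913 and 2167 without Paneth products, and 1628 lower with array weights. In irradiated CD24- over non-irradiated CD24+ cells they were 287 lower at 5 FPKM, 212 lower as TPM, 3316 and 2465 after median-of-ratios scaling, 2729 and 2905 after quantile normalization, 3532 and 1292 without Paneth products, and 3136 and 338 with the block in the 2 groups alone. The replicate block changed no call of a member. Nlrc5 and H2-M3, near or under 1 FPKM, are the members whose depth and pseudocount limit what could be detected.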
